A study of Mus musculus with 6 samples.

Results

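Neutrophils of mouse mammary tumours are described here from single-cell RNA counts of CD45-sorted cells. They were picked out by counts of a few genes, since no cell annotation was used. A kept cell had at least 200 genes detected and at most 15% of its counts from mitochondrial genes. A neutrophil then needed at least 5 counts of S100a8 and S100a9 together and at least 2 of Csf3r and Cxcr2 together. It could hold at most 1 count of Csf1r, at most 5 of C1qa, C1qb and C1qc together, at most 1 of Cd3e, Cd3d and Cd3g together, and 0 of Cd79a. The rule found 955 neutrophils among 26843 kept cells of 5 libraries. Levels of the genes in this rule are no finding. They remain in the counts over all genes and over lists, and nothing is read from them.

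The study sorted live CD45-positive cells, that is cells of blood origin, from mammary tumours and profiled them with a droplet-based 3′ kit in which samples share a chip. The series title places it in triple negative breast cancer and names MERTK inhibition together with cyclophosphamide. Single libraries carry the treatment labels MRX, CTX, Combined, ctxd18t and combod18t, and their values are given in that order below unless a library is named. A library labelled VC was not analysed here. The labels do not spell out which agents, doses or schedules stand behind these names, and the text keeps to the labels. The protocol text describes mice at day 7 that were treated 3 hours before the tissue was taken, and d18 in the other labels is read here as day 18. Mouse strain, age, the tumour line, any agent that all groups received and the number of mice in a library are not given in the sources used here. With 1 library per label no test of a treatment was possible, and no p-value is given. Intervals are at 95%, exact for levels, shares and ratios and by Newcombe's method for differences in share. They reflect counting error and leave out how mice differ.

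The libraries gave 359, 67, 57, 264 and 208 neutrophils. Their summed UMIs (unique molecular identifiers, 1 per captured transcript) ranged from 191245 in Combined to 1359406 in ctxd18t, and the median per neutrophil from 2923 to 4100. All kept cells had medians of 6469.5 to 9170, so neutrophils were shallower than the other sorted cells. The median share of mitochondrial counts in neutrophils was 0.362%, 1.24%, 0.897%, 0.415% and 0.213%, highest in CTX and Combined. Its bearing on the differences between libraries was not tested. The 2 barcode bases that tell the samples of a chip apart were the same in CTX and combod18t, and the same in Combined and ctxd18t. The protocol text assigns barcode sets to Combined, CTX, MRX and VC and names no day 18 library. CTX and combod18t shared 34 cell barcodes and Combined and ctxd18t shared 21, but 0 of these were neutrophils in both. Whether the day 18 labels match the tags was not tested, and those libraries are called by their labels throughout.

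Neutrophils are short-lived granulocytes that leave the bone marrow with granules already filled. CSF3R, the receptor for the growth factor G-CSF, drives their production, and CXCR2 guides them along gradients of chemokines such as CXCL1 and CXCL2. Genes of granule proteins are transcribed in marrow precursors and are largely silent in mature cells, while cytokine and interferon-stimulated genes can be induced in tissue.

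The label neutrophil held for genes that the rule did not use. All 14 other identity markers were above the remaining kept cells in 5 of 5 libraries. Of these, 13 were also above a monocyte gate of the same library (at least 2 counts each of Csf1r and of Vcan with F13a1) in 5 of 5, and Slpi, a protease inhibitor, in 3 of 5. G0s2, an inhibitor of the fat-splitting enzyme ATGL, stood at 7120.1, 4921, 8356, 6278 and 5335 counts per 1000000 (CPM), which was 59.5 to 415 times its level in the other kept cells. Hdc, which makes histamine, reached 2496, 1633, 2954, 2253 and 2678 CPM. Stfa2l1, a stefin A protease inhibitor with similar neighbours between which reads may be shared, reached 1359.9, 818, 1203, 1042 and 872 CPM. These 3 markers were high in every library. Ly6g, the gene of the classic surface marker of mouse neutrophils, was low in the first 3 libraries, at 6.37, 9.59, 5.23, 172 and 191 CPM.

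**Figure D1:**
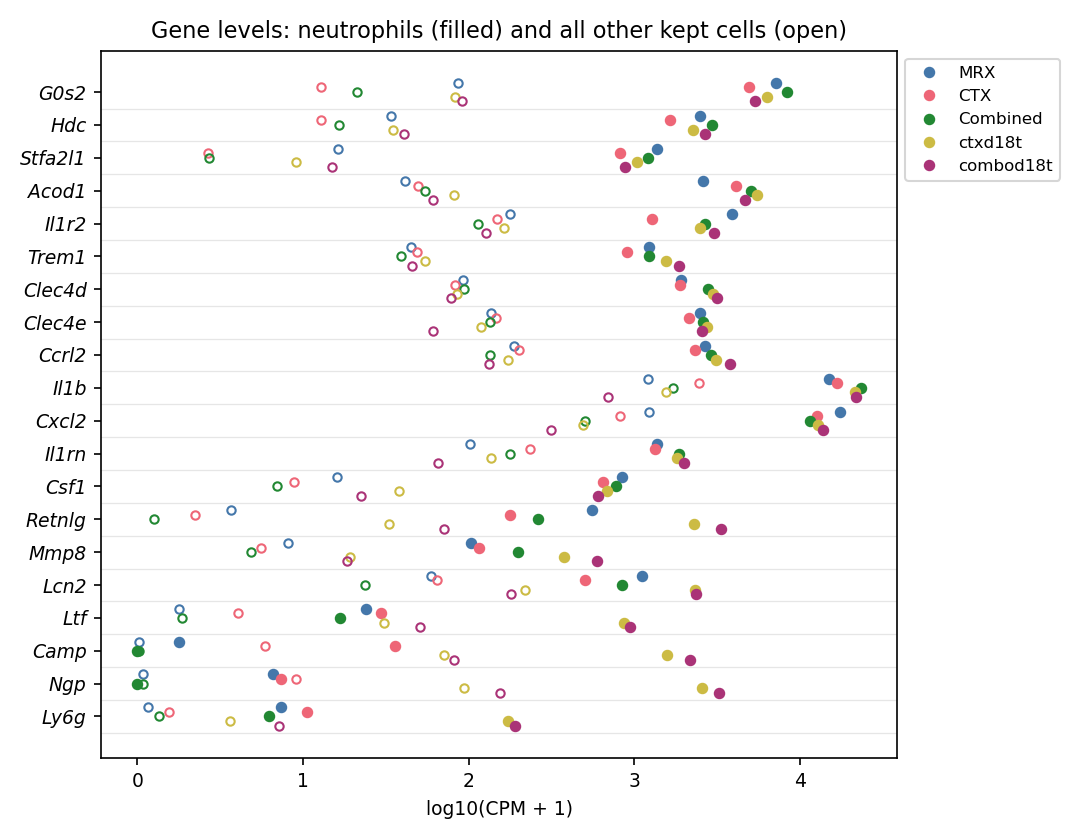
Level of 20 genes in neutrophils (filled circles) and in all other kept cells of the same library (open circles), as log10 of CPM + 1, 1 colour per library. G0s2, Hdc and Stfa2l1 lie far to the right of the other cells in every library, whereas Ltf, Camp, Ngp and Ly6g split the day 18 libraries from the other 3.

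Markers of other cell types are given without the genes that the neutrophil rule or the monocyte gate uses, though related genes move with those, so part of each low level was fixed by the selection. The 5 remaining T cell markers summed to 12.8 to 39.0 CPM, against 635 to 1573 in the other kept cells. The 5 remaining B cell markers summed to 19.2 to 123 CPM, against 315 to 2610.4. Markers of lists that share no gene with the rule came to at most 29.7 CPM for NK cells, 5.23 for erythroid cells and 2.21 for basophils and mast cells. The 6 eosinophil markers summed to 41.4, 12.8, 41.8, 18.4 and 19.2 CPM, against 2.31 to 11.8 in the other kept cells. Siglecf, which some tumour neutrophils also carry, made up 39.0, 12.8, 26.1, 12.5 and 11.5 CPM of these, while Epx, Prg2 and Alox15 were at 0 in each library. Dendritic cell markers summed to 14.4 to 148 CPM. The 8 remaining macrophage and monocyte markers summed to 567, 2019.6, 575, 615 and 233 CPM. MHC class II and costimulation genes summed to 1954, 11418, 3807, 2103 and 1219.6 CPM. CTX was highest on both of these sums. Of 67 CTX neutrophils, 11 (16.4%, 8.49 to 27.5) drew over 1% of their counts from H2-Aa, H2-Ab1, H2-Eb1 and Cd74, and they held 92.9% of the counts of those genes. Their median depth was 11090 UMIs, against 2759.5 in the other CTX neutrophils. The same limit was passed by 8 MRX, 2 Combined, 5 ctxd18t and 1 combod18t neutrophils. These cells, called MHC class II-rich here, were defined after the values were seen. Being deeper as a group, they weigh more per cell in the summed counts of a library. Some results that they touch are also given without them, and the other levels and ratios include them.

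Neutrophils were scarce in CTX and Combined. They made up 6.60% (5.95 to 7.29) of kept cells in MRX and 0.753% (0.584 to 0.955) in CTX. In Combined they made up 1.27% (0.966 to 1.65), and at day 18 6.58% (5.83 to 7.39) in ctxd18t and 5.18% (4.51 to 5.91) in combod18t. The intervals of CTX and Combined lay below those of the other 3 libraries. The difference of CTX from MRX was -5.85 points (-6.56 to -5.19), and that of Combined from CTX was 0.520 points (0.168 to 0.926), and -0.0830 points (-0.636 to 0.512) when the S100 condition was dropped. At day 18 the order of the pair was the opposite, with combod18t differing from ctxd18t by -1.41 points (-2.44 to -0.376). With 4 counts of Csf3r and Cxcr2 required this difference was -0.756 points (-1.69 to 0.175), so the order at day 18 was not clear of counting error there. Per 100 cells of the monocyte gate there were 129, 13.1, 20.7, 119 and 315 neutrophils, the gate of combod18t holding only 66 cells. A share falls when other CD45-positive cells become more numerous as well as when neutrophils become fewer, and these data cannot tell the 2 apart.

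**Figure D2:**
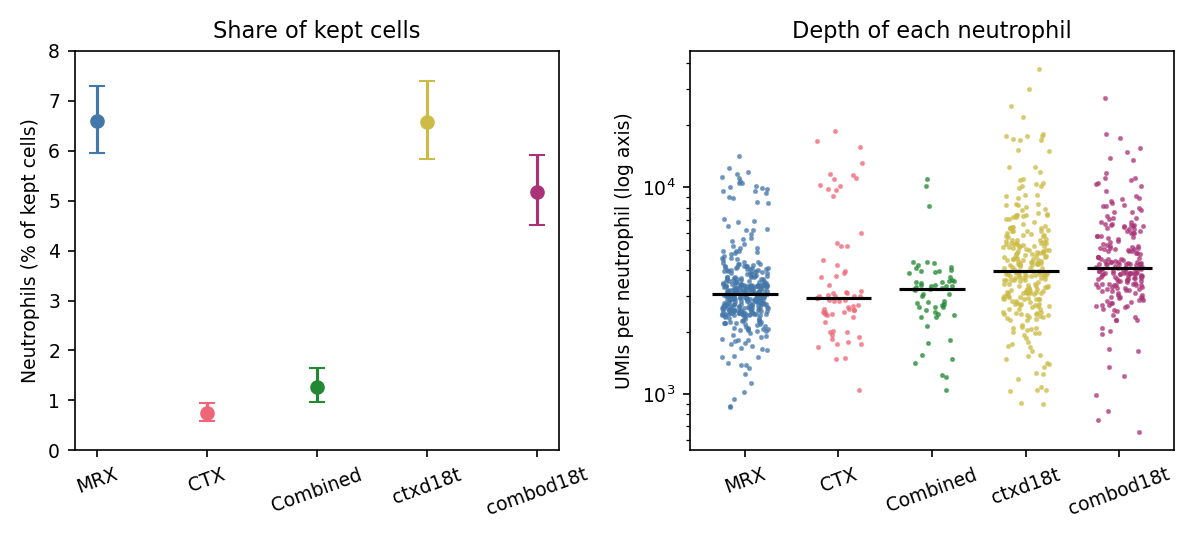
Left, neutrophils as a percentage of kept cells in each library with exact 95% intervals for counting error. Right, UMIs of every neutrophil on a log axis with the library median as a bar; the shares run from 0.753% in CTX to 6.60% in MRX while the 5 medians lie between 2923 and 4100 UMIs.

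At the edges of the rule, counted 1 step inside and outside, few cells sat on the S100 and C1q conditions and more on the receptor conditions. With 2 counts of Csf3r and Cxcr2 together 121 neutrophils were just inside, and 99 cells with 1 count were just outside. With 1 count of Csf1r 167 were inside, and 58 cells with 2 counts were outside. For S100a8 and S100a9, 8 neutrophils held 5 counts and 5 cells held 4. For C1q genes, 7 held 5 counts and 6 cells held 6. For Cd3 genes, 60 held 1 count and 11 cells held 2, and 19 cells had a single Cd79a count. Further out the S100 condition removed the most cells. 326 cells missed the rule on it alone, 56, 169, 58, 30 and 13 by library, beside 182 on Csf3r and Cxcr2 and 113 on Csf1r. Of the 169 in CTX, 144 had 0 counts of S100a8 and S100a9 and 1 had a count of Cxcr2. Their 14 identity markers outside the rule summed to 1431 CPM, against 17608 in CTX neutrophils, and the 8 macrophage and monocyte markers to 3707 against 2019.6. With such cells taken in, CTX differed from MRX in share by -4.98 points (-5.78 to -4.21). Combined then differed from CTX by -0.0830 points (-0.636 to 0.512). Most cells added in CTX lacked S100 counts, and as a group they were low in identity markers. The setting therefore cannot decide the order of Combined and CTX among neutrophils.

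The neutrophils of all 5 libraries shared an inflammatory repertoire. Il1b, the gene of interleukin-1 beta, stood at 15004, 16706, 23258, 21361 and 21641 CPM. Cxcl2, a ligand of CXCR2 itself, stood at 17406, 12616, 11498, 12898 and 13826 CPM. Both were above the monocyte gate in 5 of 5 libraries, as were Srgn, the core of granule proteoglycans (7979 to 13119 CPM), and Cebpb, a transcription factor of inflammation (4938 to 7164 CPM). Acod1, which makes the immune metabolite itaconate, ranged from 2583 to 5491 CPM and was lowest in MRX. Il1rn, the antagonist of the interleukin-1 receptor, ranged from 1329 to 2002 CPM, and Ccrl2, a chemerin-binding receptor, from 2336 to 3766 CPM. Receptors for microbial and damage patterns were present in each library. Clec4d ranged from 1879 to 3139 CPM, Clec4e from 2141 to 2759 and the amplifying receptor Trem1 from 904 to 1859.5. Cd14, a co-receptor for bacterial lipopolysaccharide, was at 7004, 4023, 7132, 3526 and 4709 CPM.

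Genes of the MERTK family were nearly silent in these cells. Mertk, a receptor tyrosine kinase that binds dying cells through bridging proteins, had 0 counts in MRX, Combined and combod18t and 1 count each in CTX (3.20 CPM) and ctxd18t (0.736 CPM). A fixed floor of 3 counts, used for a count of 0 in place of the exact interval, is 2.39 CPM in MRX, 15.7 in Combined and 2.87 in combod18t. Its relative Axl was at 0.796, 28.8, 5.23, 2.21 and 2.87 CPM, in at most 5 cells of a library. The 5 receptors and ligands of the family summed to 5.57 to 38.3 CPM, against 70.9 to 100.3 in the monocyte gate.

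The broadest contrast lay in interferon-stimulated genes, which were higher in CTX and Combined than in MRX. Ratios are given as log2 of CPM + 1, a scale that compresses the change of weakly expressed genes. A gene entered a comparison with at least 30 counts in the pair and at least 100 CPM in 1 library. It was counted as higher or lower where the log2 ratio reached 1 in size and its counting interval left out 0. CTX against MRX had 22.9% of 2057 tested genes counted, 13.2% higher and 9.77% lower. Of the genes counted, 57.4% were higher, and 74.7% after median-of-ratios scaling. Of 24 type I interferon-stimulated genes 23 were tested there, with 20 higher and 1 lower. Their median log2 ratio was 1.72, beside -0.15 over all tested genes. Combined against MRX had 16.2% of 1998 tested genes counted, 8.76% higher and 7.41% lower. The higher genes were 54.2% of those counted, and 70.9% after that scaling. Of the type I genes 20 were tested, with 16 higher and 0 lower, and the median was 1.60 beside -0.07. Both comparisons share the MRX library.

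Promoters of 5 interferon-inducible genes are shown because many genes of these lists were higher together. They come from RefSeq on GRCm38.p6, which is not the GRCm39 build of the counts, and cover the 250 bases before the start site, 5′ to 3′ on the gene's strand. The motif searched was the core of the interferon-stimulated response element, spelled GAAA, any 2 bases, GAAA, or on the other strand TTTC, any 2 bases, TTTC. Capitals mark it, and overlapping matches run together. Isg15 (chr4:156200819-156201068, minus strand) holds 3 overlapping matches, the first 78 bases before the start site. Rsad2 (chr12:26456453-26456702, minus strand) holds 1 at 120 bases, Cxcl10 (chr5:92348890-92349139, minus strand) 1 at 213 bases and Gbp5 (chr3:142496684-142496933, plus strand) 1 at 165 bases. Cd274 (chr19:29367188-29367437, plus strand) holds 0 in this window.
Isg15: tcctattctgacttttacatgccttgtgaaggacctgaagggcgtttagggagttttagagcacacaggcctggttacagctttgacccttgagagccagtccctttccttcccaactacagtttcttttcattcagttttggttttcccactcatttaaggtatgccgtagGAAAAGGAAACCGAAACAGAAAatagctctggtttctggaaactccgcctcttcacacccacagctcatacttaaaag
Rsad2: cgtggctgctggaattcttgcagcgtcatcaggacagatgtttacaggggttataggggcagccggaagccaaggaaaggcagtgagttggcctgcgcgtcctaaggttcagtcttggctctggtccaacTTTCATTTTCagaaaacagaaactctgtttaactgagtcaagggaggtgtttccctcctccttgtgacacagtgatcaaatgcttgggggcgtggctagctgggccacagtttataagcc
Cxcl10: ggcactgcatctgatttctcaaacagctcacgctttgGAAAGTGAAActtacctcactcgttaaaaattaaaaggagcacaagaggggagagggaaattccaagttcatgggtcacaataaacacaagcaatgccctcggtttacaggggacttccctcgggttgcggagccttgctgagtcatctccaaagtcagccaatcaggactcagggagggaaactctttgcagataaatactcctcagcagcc
Gbp5: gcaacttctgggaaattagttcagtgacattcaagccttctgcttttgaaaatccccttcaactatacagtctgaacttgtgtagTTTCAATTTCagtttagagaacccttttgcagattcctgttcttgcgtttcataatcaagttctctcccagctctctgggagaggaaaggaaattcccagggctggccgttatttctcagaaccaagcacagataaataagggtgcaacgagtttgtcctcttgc
Cd274: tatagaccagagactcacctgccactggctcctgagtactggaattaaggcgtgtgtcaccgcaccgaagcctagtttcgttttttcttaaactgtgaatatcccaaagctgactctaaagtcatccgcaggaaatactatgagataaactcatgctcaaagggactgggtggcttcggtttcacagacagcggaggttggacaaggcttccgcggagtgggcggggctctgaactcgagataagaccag

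Over windows of 300 bases, 250 before and 50 after the start site, 3.44% of 32851 mouse promoters held the motif on either strand. Of 24 type I genes 20 matched the table, and 10 of their 24 promoters held it. Of 21 interferon gamma genes 18 matched, and 9 of 22 promoters held it. It was in 1 of 22 promoters of hypoxia and glycolysis genes, in 0 of 18 of identity genes and in 0 of 7 of secondary granule genes. A match describes letters and says nothing about binding in these cells.

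Isg15, a ubiquitin-like protein, stood at 2034, 6072, 6379, 4053 and 3039 CPM, lowest in MRX. Its log2 ratio to MRX was 1.58 (1.49 to 1.66) in CTX and 1.65 (1.55 to 1.75) in Combined. With every neutrophil thinned to 500 UMIs, which left out none, Isg15 was seen in 43.5%, 82.1%, 75.4%, 64.4% and 56.7% of neutrophils, against 2.67% to 7.92% of T-gate cells thinned alike, a measure of free RNA together with the T cells' own expression. Unthinned, the shares of neutrophils were 74.7%, 97.0%, 89.5%, 95.5% and 91.3%, and the T-gate cells had median depths of 4898 to 7879 UMIs. Rsad2, whose product viperin makes a chain-terminating nucleotide, was at 242, 3141, 627, 2172 and 1439 CPM. CTX stood above MRX by 3.69 (3.51 to 3.89) and Combined by 1.37 (1.06 to 1.68) on the log2 scale. Ifit1, an RNA-binding antiviral protein, was at 132, 745, 507, 527 and 476 CPM, and its family member Ifit2 at 137, 987, 533, 454 and 474 CPM. Cmpk2, a mitochondrial nucleotide kinase, had a ratio of 3.32 (2.83 to 3.92) in CTX. Ifitm1, of a family that blocks viral entry, went the other way, at 2269, 901, 1292, 1814 and 1632 CPM with a ratio of -1.33 (-1.51 to -1.16) in CTX. Near-identical copies such as Ifit3 and Ifit3b can share reads, so their separate counts are uncertain.

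Genes of the interferon gamma response were higher too. Of 21 listed, 20 were tested in CTX against MRX, with 17 higher, 0 lower and a median of 2.32. In Combined against MRX 19 of 20 were higher and 0 lower, with a median of 2.50. Gbp4, an interferon-induced GTPase, was at 8.75, 236, 434, 89.0 and 83.3 CPM, with ratios to MRX of 4.61 (3.83 to 5.82) in CTX and 5.48 (4.72 to 6.69) in Combined. Gbp5, a GTPase that promotes inflammasome assembly, was at 68.4, 467, 465, 251 and 226 CPM. Guanylate-binding proteins form a family of similar genes between which reads may be shared. Cxcl10, a chemokine for CXCR3-bearing T cells, was at 129, 1879, 1072, 577 and 196 CPM, and Cxcl9, with the same receptor, at 11.9, 575, 173, 36.0 and 11.5 CPM. Socs1, a feedback inhibitor of cytokine signalling, had ratios to MRX of 2.61 (1.87 to 3.52) in CTX and 3.61 (2.91 to 4.49) in Combined. Cd274, the gene of the checkpoint ligand PD-L1, was at 253, 786, 909.8, 950.4 and 849.8 CPM, so MRX stood below the other 4 libraries. Thinned to 500 UMIs, Cd274 was seen in 8.64%, 29.9%, 26.3%, 33.7% and 29.8% of neutrophils, against 4.22% to 7.95% of T-gate cells, and unthinned in 30.1%, 62.7%, 61.4%, 65.5% and 59.1%.

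The interferon counts were as high without the MHC class II-rich cells. Then 21 of 23 type I genes and 18 of 20 interferon gamma genes were higher in CTX than in MRX. For Combined the counts were 17 of 22 and 19 of 20, the latter with 1 lower. In the monocyte gate of the same libraries 1 of 14 tested type I genes was higher in CTX than in MRX, where 4.33% of all genes tested in that gate were counted in either direction, with a median of 0.44, and 1 of 12 in Combined, where 6.98% were counted, with a median of 0.47. The type I counts of the gate are thus near its own background. For the interferon gamma list the monocyte gate had 13 of 18 higher in CTX and 17 of 20 in Combined, with medians of 1.21 and 1.36. The difference between neutrophils and the monocyte gate was not tested.

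Cell by cell, the type I genes summed to medians of 6049.6, 25948, 18427, 13243 and 10593 CPM. The libraries overlapped widely. The upper quartile of MRX, 10948 CPM, was exceeded by 70.1% of CTX, 68.4% of Combined, 60.6% of ctxd18t and 48.6% of combod18t neutrophils.

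**Figure D3:**
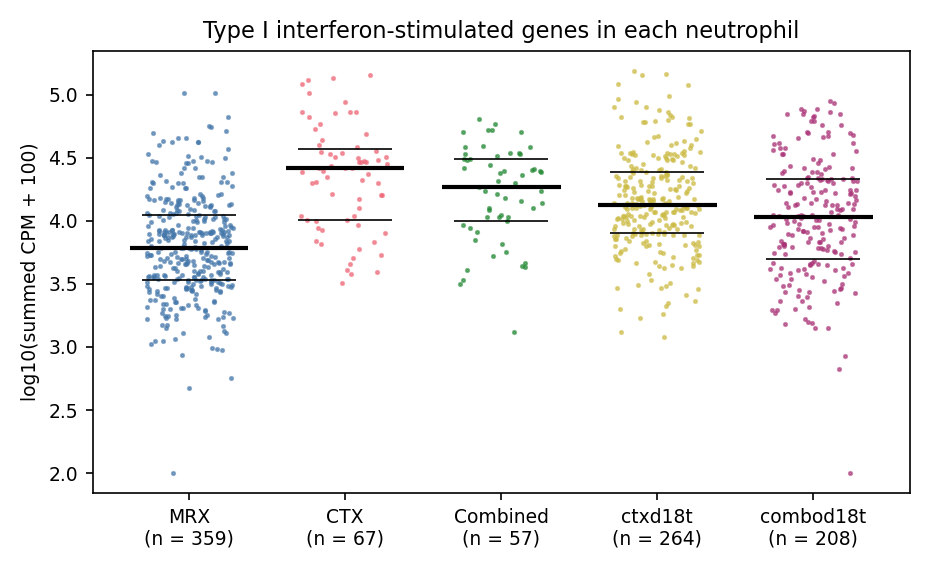
Summed CPM of 24 type I interferon-stimulated genes in each neutrophil, as log10 of the sum + 100, with the library's median (thick bar) and quartiles (thin bars). MRX has the lowest median and CTX the highest, and all 5 libraries overlap.

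**Figure D4:**
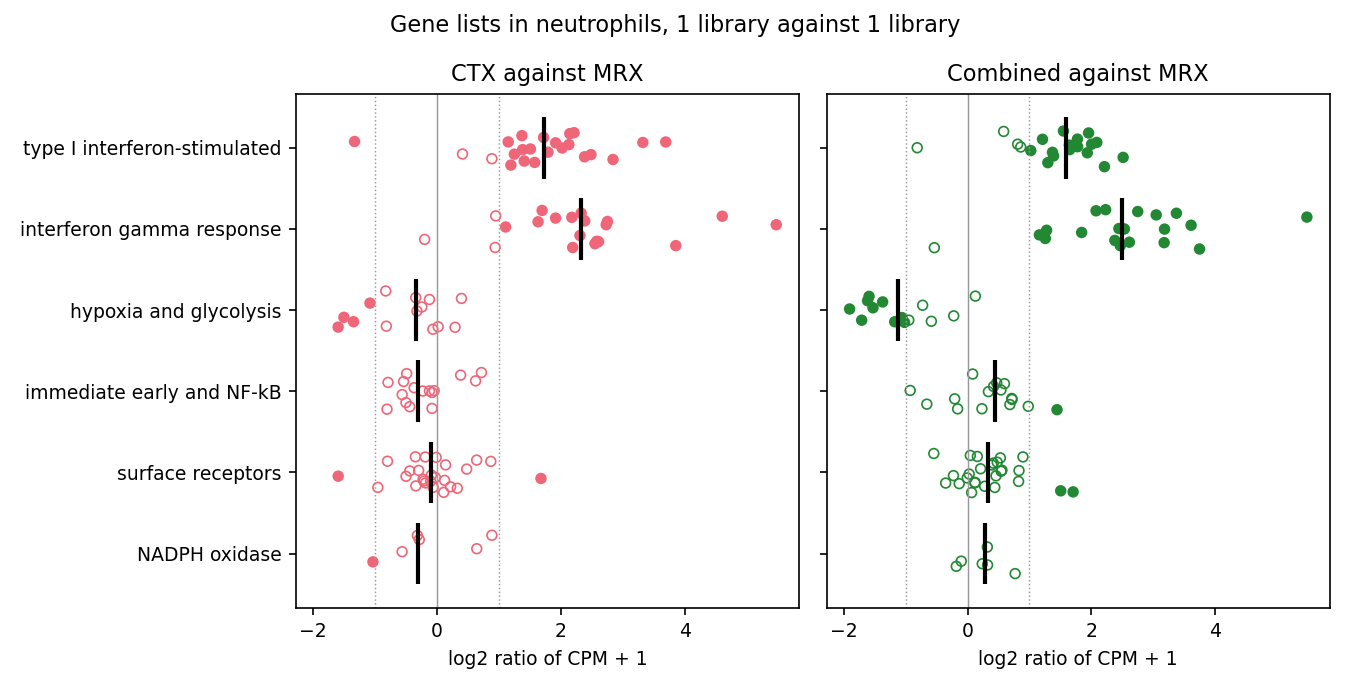
Log2 ratio of CPM + 1 for each tested gene of 6 lists in CTX against MRX (left) and Combined against MRX (right). Filled circles are genes at least 1 in size with a counting interval excluding 0, dotted lines mark a size of 1 and the black bar is the list's median; most genes of both interferon lists lie to the right.

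Genes of hypoxia and glycolysis were lower in Combined than in MRX. Of 17 listed 14 were tested, with 9 lower and 0 higher, and the median was -1.12 beside -0.07 over all tested genes. Ldha, lactate dehydrogenase, was at 840.3, 473, 256, 772 and 577 CPM, with a ratio of -1.71 (-2.16 to -1.30). Bnip3, a mitochondrial autophagy receptor, was at 414, 195, 109.8, 279 and 251 CPM, with a ratio of -1.90 (-2.62 to -1.29). Hilpda, a lipid droplet protein induced by low oxygen, was at 1042, 409, 339.9, 539.9 and 689 CPM, with a ratio of -1.61 (-2.00 to -1.26). For these genes Combined was lowest and MRX highest. Ero1a, an oxidase of protein folding, was at 726, 256, 241, 716 and 703 CPM, with a ratio of -1.59 (-2.05 to -1.17).

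In CTX against MRX, 4 of 14 genes of this list were lower and 0 higher, namely Hk2, Bnip3, Hilpda and Ero1a. Of all tested genes 9.77% were lower there. The list's median was -0.33, beside -0.15 over all tested genes. Hk2, a hexokinase, had a ratio of -1.60 (-2.27 to -1.01). The prolyl hydroxylase subunit P4ha1, at 468, 166, 94.1, 317 and 349 CPM, and the glycogen branching enzyme Gbe1, at 204, 54.3, 15.7, 132 and 128 CPM, were not on the list and were among the 8 genes furthest below MRX in Combined. Without MHC class II-rich cells 9 of 13 genes of the list were lower in Combined and 2 of 14 in CTX. The latter count is near the 9.77% of all tested genes found lower with those cells included. With no condition on Csf1r, 5 of 14 were lower in Combined. The monocyte gate had 0 of 12 lower and 1 higher in Combined against MRX.

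Further genes differed between MRX and CTX or Combined. Gpc3, a cell surface proteoglycan, was at 391, 12.8, 83.7, 52.2 and 42.2 CPM and was seen in 147 MRX neutrophils. Igfbp6, which binds insulin-like growth factors, was at 407, 83.1, 94.1, 139 and 98.7 CPM. Areg, an EGF receptor ligand, was at 289, 35.2, 83.7, 102 and 155 CPM, in 39 MRX neutrophils and at most 11 of another library. MRX was highest for each. Il1r2, the decoy receptor for interleukin-1, was at 3875, 1281, 2656, 2503 and 3021 CPM, with a ratio of -1.60 (-1.75 to -1.45) in CTX. Ccl4, an inflammatory chemokine, was higher in CTX, by 2.03 (1.88 to 2.19), and in Combined, by 1.36 (1.16 to 1.57). Fcgr4, an activating receptor for IgG, was at 132, 425, 376, 185 and 145 CPM, with ratios to MRX of 1.68 (1.35 to 2.02) in CTX and 1.50 (1.09 to 1.92) in Combined. Prkg1, a cyclic GMP-dependent kinase, was among the genes furthest above MRX in CTX, with all its 34 counts in 1 cell.

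Combined against CTX had 22.5% of 1939 tested genes counted, 9.23% higher and 13.3% lower. Of 23 tested type I genes 0 were higher and 3 lower, namely Rsad2, Usp18 and Cmpk2. Of 19 interferon gamma genes Socs1 was higher, at 1.00 (0.33 to 1.69), and Cxcl9 lower; with cells thinned to 500 UMIs Socs1 was at -0.18. Rsad2 had the ratio -2.32 (-2.61 to -2.05), and -2.96 without MHC class II-rich cells. Thinned to 500 UMIs, Rsad2 was seen in 40.3% of CTX and 12.3% of Combined neutrophils, against 0.241% to 1.62% of T-gate cells, and unthinned in 64.2% and 50.9%. Without those cells 7 of 23 type I genes were lower in Combined.

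Combined stood above CTX for genes of several kinds. Il1a, interleukin-1 alpha, was at 276, 492, 1914, 619 and 1073 CPM, with a ratio of 1.96 (1.68 to 2.24). At 500 UMIs per cell that ratio was 0.94, and Il1a was seen in 35.1% of Combined and 17.9% of CTX neutrophils, against at most 0.129% of T-gate cells; unthinned the shares were 61.4% and 34.3%. Icam1, an adhesion molecule for integrins, was at 184, 173, 601, 133 and 285 CPM, with a ratio of 1.80 (1.32 to 2.30). Gpr84, a receptor for medium-chain fatty acids, was at 133, 28.8, 277, 29.4 and 62.3 CPM, with a ratio of 3.22 (2.24 to 4.47). Combined was highest of the 5 libraries for each of these. Txnip, an inhibitor of thioredoxin, was at 584, 205, 789.6, 260.4 and 643 CPM, with a ratio of 1.94 (1.52 to 2.39). Entpd3, which degrades extracellular ATP, was at 208, 35.2, 225, 82.4 and 151 CPM, and the inhibitory lectin Siglece at 166, 47.9, 230.1, 84.6 and 127 CPM. For these 3 genes CTX was the lowest library. Of 15 tested immediate early and NF-kB genes 2 were higher, beside 9.23% of all tested genes: Tnfaip3, a brake on NF-kB, at 1.52 (0.93 to 2.14) and Sod2, mitochondrial superoxide dismutase, at 1.06 (0.82 to 1.31). Without MHC class II-rich cells the ratio was 1.63 for Il1a, 1.54 for Icam1, 2.99 for Gpr84 and 1.66 for Txnip.

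Among genes lower in Combined than in CTX were those of the MHC class II-rich CTX cells. Of 6 tested MHC class II and costimulation genes 5 were lower, and 0 without those cells. Of 6 tested macrophage and monocyte markers 5 were lower, and 3 of 5 without them. Tmsb10, an actin-binding peptide, had -2.52 (-2.86 to -2.21), and -2.46 without those cells. Cxcl3, a CXCR2 ligand, was at 717, 489, 136, 459.8 and 484 CPM, so Combined stood at the low end. Cxcl1, another, was at 50.9, 112, 5.23, 64.7 and 119.8 CPM, from 5 CTX cells and 1 Combined cell. In all 436 genes were counted in this pair, against 270 without MHC class II-rich cells and 166 with no condition on Csf1r. With cells thinned to 500 UMIs, where 346 genes could be tested, 35 were counted.

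At day 18 the share of genes counted between combod18t and ctxd18t was smaller than in the other pairs. It was 7.49% of 1802 tested, 1.61% higher and 5.88% lower. Higher genes made up 21.5% of those counted, and 40.5% after median-of-ratios scaling. The number counted depended on the processing. It was 66 of 1802 with averaged CPM of single cells and 728 of 5713 with no CPM minimum. With cells thinned to 500 UMIs it was 66 of 1310, beside 35 of 346 in Combined against CTX. Of 23 tested type I genes 0 were higher and 1 lower, Bst2, a tether of budding viruses, at -1.21 (-1.55 to -0.89). Of 15 interferon gamma genes Irf8 and Cxcl10 were lower, and Cxcl10 had -1.55 (-1.78 to -1.33). Il23a, a subunit of interleukin-23, was at 29.4 CPM in 9 cells of ctxd18t and at 137 CPM in 17 cells of combod18t, a ratio of 2.18 (1.70 to 2.76). Creb5, a transcription factor, had 1.72 (1.42 to 2.06) and the phosphatase gene Dusp2 1.41 (1.06 to 1.80). Txnip was higher in combod18t by 1.30 (1.12 to 1.49), Icam1 by 1.09 (0.83 to 1.38), Tnfaip3 by 1.02 (0.87 to 1.17) and Mmp9, a gelatinase, by 1.00 (0.73 to 1.29). These 4 genes were put together after their values were seen. Since the day 18 barcode tags cross the labels, the direction of this pair rests on the labels alone, and with the labels exchanged each ratio would change sign.

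Some of the largest day 18 differences came from single cells. Il12b had all its 272 counts of ctxd18t in 1 cell, and Prtn3, a primary granule protease, had 110 of 111 counts of combod18t in 1 cell. Without the cell with the most counts in each library the ratio of Prtn3 went from 2.91 to -2.53. Epcam, an epithelial marker, was at 115 CPM in ctxd18t, in 9 cells, and epithelial markers summed to 159.6 CPM there against 15.3 in combod18t. The 8 macrophage and monocyte markers outside the rule and the gate summed to 615 and 233 CPM. Their part in these differences was not tested.

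Secondary granule genes were higher in the day 18 libraries, where the 8 listed genes summed to 8163 and 9526 CPM against 853 to 1289.9 in the other 3. In the other kept cells they summed to 114, 138, 117, 470 and 512 CPM, so these too were higher at day 18. Ngp, neutrophilic granule protein, was at 5.57, 6.39, 0, 2561 and 3251 CPM, Camp, the cathelicidin gene, at 0.796, 35.2, 0, 1576 and 2158 and Ltf, lactoferrin, at 23.1, 28.8, 15.7, 864 and 942. Ngp, Camp and Ltf lay under the minimum of 100 CPM in CTX and Combined and passed it only at day 18. That minimum thus let them in by their high day 18 level, and the counts of granule genes given next were fixed in part by it. ctxd18t against CTX had 29.8% of 1976 tested genes counted, 13.2% higher and 16.6% lower, and 6 of 6 tested secondary granule genes were higher. combod18t against Combined had 27.1% of 1948 counted, 12.7% higher and 14.4% lower, with 6 of 7 granule genes higher. Chil3, a chitinase-like protein that macrophages also make, was the lower one, at 11.1, 70.3, 141, 76.5 and 46.9 CPM with a ratio of -1.57 (-2.29 to -0.85); with at least 20 counts of S100a8 and S100a9 required it was 0.83. Among the genes counted in this pair 47.0% were higher, and 70.0% after median-of-ratios scaling. Day cannot be told apart from other differences between libraries in these pairs. Since the day 18 tags cross the labels, the match of treatments in them rests on the labels too.

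These transcripts sat in few cells. With a limit of 20 counts of Ngp, Camp and Ltf together, set after the values were seen, 9 of 264 ctxd18t neutrophils were granule-rich (3.41%, 1.57 to 6.37) and 10 of 208 in combod18t (4.81%, 2.33 to 8.66). They held 99.0% and 98.9% of the counts of these 3 genes. The remaining neutrophils had less of each than the other kept cells, in part because of the limit. Ngp was at 25.8 against 92.5 CPM in ctxd18t and at 51.7 against 154 in combod18t. Free RNA in these libraries was not measured. MRX, CTX and Combined had 0 such cells, with exact upper limits of 1.02%, 5.36% and 6.27%. The granule-rich cells were deep, with medians of 12611 and 12374 UMIs.

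Other genes set the granule-rich cells apart from the neutrophils around them. Ly6g was at 1477 CPM in them and 46.8 in the rest of ctxd18t, and at 1143 and 50.6 in combod18t. Lcn2, an iron-chelating granule protein, was at 15451 and 1045 CPM in ctxd18t and at 10834 and 1102 in combod18t. Anxa1, an anti-inflammatory phospholipid-binding protein, was at 8233 and 384 CPM in ctxd18t and at 7681 and 484 in combod18t. Il1b was at 3424 against 23084 CPM in ctxd18t and at 8907 against 23514 in combod18t. Isg15 was at 1108 against 4335 CPM and at 755 against 3375. Cd14 was at 2862 against 3589.6 CPM and at 4012 against 4811, so it differed less than the other 2. Elane, neutrophil elastase of primary granules, had 0 counts in the granule-rich cells of ctxd18t, and its 39 counts in combod18t lay in 1 cell. Since these cells were picked by their counts, the values describe them and carry no test.

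**Figure D5:**
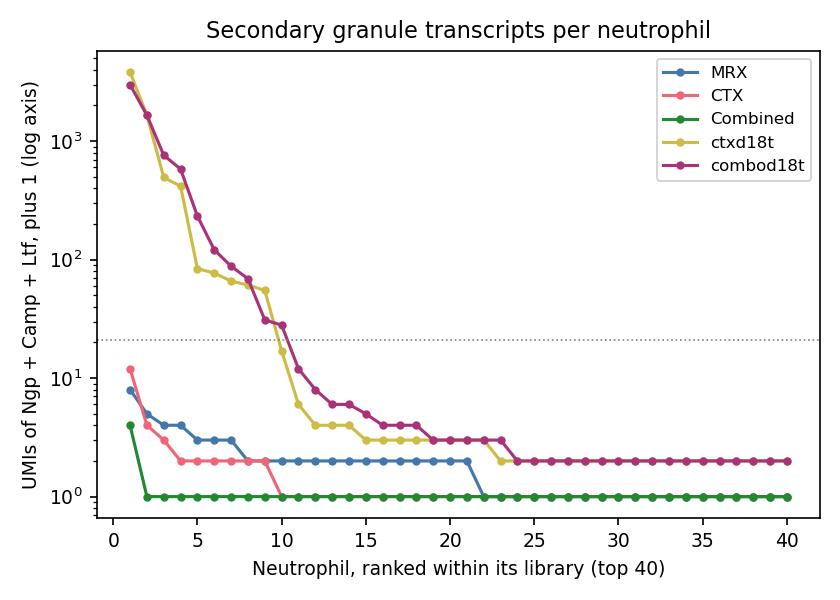
Counts of Ngp, Camp and Ltf together, plus 1, on a log axis for the 40 highest neutrophils of each library, ranked within the library. Cells above the dotted line at 20 counts are found in ctxd18t and combod18t, 9 and 10 of them, and the highest cells of MRX, CTX and Combined hold 7, 11 and 3 counts.

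The granule-rich cells were picked by 3 genes of the granule list, so the counts of that list without them were fixed in part by the choice, and fewer of its genes could be tested. Secondary granule genes were then higher in 1 of 2 tested in ctxd18t against CTX and in 0 of 3 in combod18t against Combined. Retnlg, a resistin-like secreted protein, was at 553, 176, 261, 2302 and 3352 CPM. Its ratio was 3.70 (3.33 to 4.12) in ctxd18t against CTX and 2.70 without those cells, and 3.68 (3.28 to 4.11) and 3.19 in combod18t against Combined. Tlr4, the receptor for bacterial lipopolysaccharide, was at 206, 227, 303, 467 and 649 CPM, with ratios of 1.04 (0.69 to 1.42) and 1.09 (0.71 to 1.51) in the same pairs. Without granule-rich cells these were 1.09 and 1.22. Both genes were highest in the day 18 libraries.

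Interferon gamma genes were lower in the day 18 libraries than in CTX and Combined. The list summed to 7288, 20129, 22620, 11058 and 8558 CPM, so MRX was lowest. Of 20 tested in ctxd18t against CTX 9 were lower and 0 higher, with a median of -0.97 beside 0.08 over all tested genes. In combod18t against Combined 17 of 19 were lower and 0 higher, with a median of -1.60 beside 0.02. The monocyte gate moved the same way in both pairs. It had 4 of 19 lower, 0 higher and a median of -0.77 in the first, where 8.30% of all genes tested in that gate were counted. In the second it had 11 of 20 lower, 0 higher and a median of -1.08, where 15.1% were counted. The difference between neutrophils and the gate was not tested. Cxcl11, a CXCR3 ligand, was at 54.9, 866, 1124, 100 and 108 CPM, and AW112010, an interferon-induced transcript, at 103, 1422, 1281, 71.4 and 51.7 CPM. Both were high in CTX and Combined alone. Cd274 had ratios of 0.27 (0.08 to 0.48) and -0.10 (-0.33 to 0.14) in these pairs and was counted in neither. Of 23 type I genes 1 was higher and 5 lower in ctxd18t against CTX, and without MHC class II-rich cells 15 were lower. In combod18t against Combined 2 of 23 were higher and 6 lower. Saa3, an acute phase protein, was at 4076, 1202, 1966, 555 and 128 CPM. Tnfaip3 was at 213, 121, 350.3, 444 and 902 CPM and Sod2 at 601, 783, 1637, 338 and 419 CPM, so the former was higher and the latter lower at day 18.

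Hypoxia and glycolysis genes were higher in combod18t than in Combined for 5 of 13 tested and lower for 0, with a median of 0.97. In ctxd18t against CTX 2 of 14 were higher, near the 13.2% of all tested genes, and 0 without MHC class II-rich cells. Of 16 immediate early and NF-kB genes 5 were higher and 1 lower in ctxd18t against CTX, and 4 higher and 2 lower in combod18t against Combined. Over all tested genes 13.2% were higher and 16.6% lower in the first of these pairs, and 12.7% and 14.4% in the second. Of 10 tested suppressive myeloid genes 4 were higher and 1 lower in the first pair, and 1 of 10 higher and 1 lower in the second, set beside the same shares of all genes. MHC class II and costimulation genes were lower for 5 of 6 in ctxd18t against CTX, and for 0 without MHC class II-rich cells. In combod18t against Combined 4 of 6 were lower, and 5 without those cells. Of 6 NADPH oxidase genes, which make the oxidative burst, at most 1 was counted in any of the 6 pairs, and their sum stayed between 2870.4 and 3780.5 CPM. Of 27 surface receptor genes at most 4 were counted in a pair, with 25 or 26 tested. Over the 6 pairs 7.49% to 29.8% of all tested genes were counted. Cxcr4, which retains neutrophils in the marrow, ranged from 363 to 607 CPM and was counted in 0 of 6 pairs. C5ar1, the receptor for complement C5a, ranged from 672 to 973 CPM, and Fpr1, for formylated bacterial peptides, from 417 to 638 CPM. Siglecf, a marker of some tumour neutrophils and of eosinophils, was at 39.0, 12.8, 26.1, 12.5 and 11.5 CPM.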

How the data were processed

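Single-cell UMI counts were analysed as deposited: the authors made them with Cell Ranger 9.0.1, per the submitters' processing notes, which also name Seurat 5.2.0 and GRCm39 without a role. The matrices hold whole-number counts of 33696 features. From these, kept cells and neutrophils were selected by the stated rule, counts were summed over the neutrophils of a library and divided by their total to give CPM, and pairs of libraries were compared by the log2 ratio of CPM + 1 with the exact conditional binomial interval of the ratio without the added 1. Levels have exact Poisson intervals and shares exact Clopper-Pearson intervals. UMI totals of the neutrophils of a library limit the precision. Scrublet's automatic threshold marked under 0.5% of cells, so doublets were not removed, and removing the highest 5% by score was an alternative. Python 3.11.15, numpy 2.4.6, scipy 1.17.1, pandas 2.3.3 and scanpy 1.11.5 were used. On simulated data for CTX against MRX the direction was recovered for 100% of changed genes and 94.5% of intervals held the true ratio. These counts were drawn from a Poisson model without spread between cells, the model on which the intervals rest. The result therefore checks the calculation and cannot show how the intervals perform on real cells.

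Genes were named where they led a list in a pair (at most 4 in each direction), were among the 8 highest or 8 lowest of a pair by the interval bound nearest 0, or were among 10 fixed genes, of which 1 is not reported here. Levels of other genes of the lists, and the ratios of Isg15, of Rsad2 in Combined against MRX, and of Socs1 in CTX against MRX, were chosen after their values were seen. The members and lists were chosen with earlier results of these data known.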

Additional observations from a re-analysis of the deposited data

Results flagged for a closer look

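For 3 values the pair of Combined with CTX and the pair of combod18t with ctxd18t went opposite ways. The difference between the pairs was not tested. The share of neutrophils was 0.520 points higher in Combined than in CTX, and differed by -1.41 points between combod18t and ctxd18t. With 4 counts of Csf3r and Cxcr2 required the latter was -0.756 points (-1.69 to 0.175). With no condition on S100a8 and S100a9 the former was -0.0830 points (-0.636 to 0.512), an interval that includes 0. The cells which that setting adds in CTX were as a group low in identity markers, so it cannot decide the order among neutrophils. Cxcl1, a CXCR2 ligand, had a log2 ratio of -4.18 in the first pair, where Combined held 1 count, and 0.88 in the second. Socs1, an inhibitor of cytokine signalling, had 1.00 in the first pair and -0.88 in the second. With cells thinned to 500 UMIs Socs1 was at -0.18 in the first pair. At that depth few counts remain, so its direction there is uncertain. The barcode tags of the day 18 libraries cross the labels of the pair. With those labels exchanged each value of the second pair would change sign and have the direction of the first, so these contrasts rest on the labels.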

How the results depend on the processing

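Each count of genes, list count and share difference was recomputed under up to 15 alternatives, of which those without MHC class II-rich cells, without granule-rich cells, without the top cell of each gene and, for the shares alone, without the S100 condition were added after seeing the data. Requiring 4 counts of Csf3r and Cxcr2 gave share differences of -4.14 points for CTX minus MRX, -3.63 for Combined minus MRX and 4.62 for ctxd18t minus CTX. With no condition on S100a8 and S100a9 they were -4.98 for CTX minus MRX, 4.68 for ctxd18t minus CTX and 2.93 for combod18t minus Combined. Combined minus CTX changed sign to -0.0830, with an interval of -0.636 to 0.512. Without the Csf1r condition 166 genes were counted in Combined against CTX, and 5 hypoxia and glycolysis genes were lower in Combined than in MRX. Averaging the CPM of single cells left 66 genes in combod18t against ctxd18t. Thinning to 500 UMIs, where fewer genes could be tested, gave 66 genes in that pair, 35 in Combined against CTX, 197 in CTX against MRX, 162 in Combined against MRX, 205 in ctxd18t against CTX and 167 in combod18t against Combined. It left 10 of 16 type I genes higher in Combined than in MRX, 9 of 11 interferon gamma genes in CTX and 11 of 11 in Combined, 5 of 12 hypoxia genes lower in Combined and 3 of 5 granule genes higher in ctxd18t than in CTX. With no CPM minimum 728 genes were counted in combod18t against ctxd18t, 1092 in CTX against MRX, 605 in Combined against MRX, 1263 in ctxd18t against CTX and 852 in combod18t against Combined. Without MHC class II-rich cells 270 were counted in Combined against CTX and 375 in ctxd18t against CTX. Without granule-rich cells 1 granule gene was higher in ctxd18t than in CTX and 0 in combod18t than in Combined. Of 1275 recomputed values of 85 single-gene ratios, 188 moved outside their counting interval without changing sign, 46 of them when thinned, 37 without the Csf1r condition, 24 with averaged CPM and 23 without MHC class II-rich cells, and 5 changed sign. Prtn3 in combod18t against ctxd18t went to -4.03 with 4 receptor counts, to -2.55 without granule-rich cells and to -2.53 without the top cell, and Socs1 in Combined against CTX went to -0.18 when thinned. Chil3 in combod18t against Combined went to 0.83 with at least 20 counts of S100a8 and S100a9. Except where the wording above gives it, the cause was not tested. Median-of-ratios scaling shifted all ratios by 0.28 in combod18t against Combined, 0.17 in CTX against MRX, 0.16 in combod18t against ctxd18t, 0.12 in Combined against MRX, 0.06 in ctxd18t against CTX and -0.05 in Combined against CTX. No paired analysis was possible because each label has 1 library, and for the same reason no library could be left out. Combined and CTX, with 57 and 67 neutrophils, set the depth limit of every pair they enter.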
